A study of Homo sapiens with 6 samples.

Results

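Described here are 265 genes whose RNA level in the second CdGAP-depleted library stood apart from the other libraries of its own group. They were chosen from the readout itself. Counts were scaled to counts per 1000000 counted reads of the library (CPM). A gene was taken when its mean CPM over the 6 libraries was at least 8 and when the log2 ratios of shCdGAP replicate 2 to replicate 1 and to replicate 3 were both above 0.5 or both below -0.5. Of 64253 genes in the tables, 10271 reached the mean CPM of 8. Of these, 192 were high and 73 were low in replicate 2, together 2.58%.

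The cells, PC-3, are a human line derived from a bone metastasis of prostate cancer and grow without androgen. Lentivirus had brought in either an shRNA directed at CdGAP (labelled shCDGAP, here shCdGAP, 3 replicates) or a control shRNA (shCon, 3 replicates), and total RNA was sequenced. CdGAP, encoded by ARHGAP31, is a GTPase-activating protein for the small GTPases Rac1 and Cdc42. According to the methods, shCdGAP PC-3 cells were selected with puromycin and grown from single cells into clones. The sequenced clone is not named and no cloning is described for shCon cells, so the shRNA and the history of a clone cannot be told apart. The methods call the 3 samples of each group independent, and the labels do not say which samples share a culture or a day.

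The level of an mRNA in a culture depends on how crowded the cells are, on oxygen and nutrients in the medium, on the phase of the cell cycle and on signals that the cells secrete. Hypoxia-inducible factors switch on genes for glycolysis, pH control and vessel growth. Type I interferon signalling acts through transcription factors that bind interferon-stimulated response elements and switch on antiviral genes such as those for the MX and OAS proteins.

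The 6 libraries held 33182796 to 43154039 counted reads, with 43154039 in shCdGAP replicate 2, and the 10 most abundant genes took 3.37% to 3.60% of them. ARHGAP31 was at 26.6, 27.4 and 27.2 CPM in shCdGAP replicates 1, 2 and 3 and at 58.3, 59.8 and 58.0 CPM in the shCon replicates. The depletion of the targeted gene was thus of one size in the 3 shCdGAP libraries. KRT8, KRT18 and EPCAM were at 81.4 to 301 CPM in all 6 libraries, and KLK3 had no read. A chi-square comparison of pairs of libraries gave 26.6 and 32.7 per degree of freedom for shCdGAP replicate 2 against replicates 1 and 3, 3.20 for replicate 1 against replicate 3, and 2.58 to 6.89 within shCon. All pairs thus differed by more than counting noise, and none was treated as one library deposited a second time.

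When the same ratios were taken with each other library in the place of shCdGAP replicate 2, few genes passed. No gene passed for shCdGAP replicate 1, and 3 genes were high and none low for shCdGAP replicate 3. In shCon, 3 genes were low in replicate 1, 2 were high and 13 low in replicate 2, and 3 were high and 1 low in replicate 3. The median absolute log2 ratio of replicate 3 to replicate 1 was 0.0663 over the high members and 0.0848 over the low members, against 0.0428 over the 10006 other genes of mean CPM of at least 8.

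**Figure D1:**
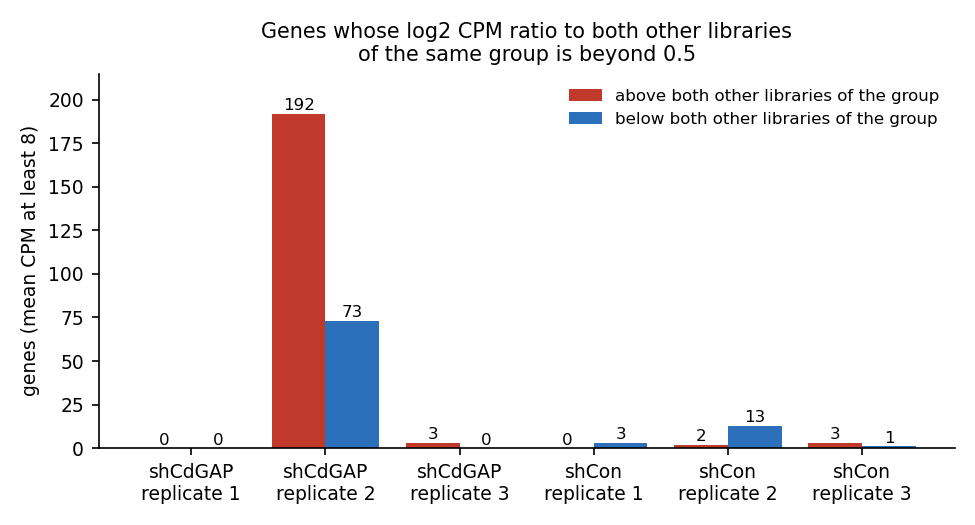
Number of genes (vertical axis, genes with a mean CPM of at least 8) whose log2 CPM ratios to both other libraries of the same group are above 0.5 (red) or below -0.5 (blue), for each of the 6 libraries. ShCdGAP replicate 2 has 192 and 73 such genes, and each of the other 5 libraries has at most 15 in all.

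Of the 265 members 78 belonged to at least 1 of the gene lists used here, 38 of them high and 40 low. Low in replicate 2 were 10 of 36 interferon response genes and 13 of 15 genes of the mitochondrial genome, and high were 9 of 40 genes of hypoxia and glycolysis and 8 of 38 genes of epithelial junctions and keratins. Members were 2.58% of all genes of mean CPM of at least 8. The control regions of the interferon-stimulated and hypoxia members are shown first, because these are the nuclear lists with the most members in a single direction. The sequences are RefSeq's (GRCh38.p14) and run from 250 bases before to 50 bases after a transcription start, and capitals mark the letters GAAANNGAAA, the core of the interferon-stimulated response element, read on both strands. IFI6 lies at chr1:27672143-27672442 on the minus strand, MX1 at chr21:41431800-41432099, OAS3 at chr12:112938224-112938523 and IFI27 at chr14:94110486-94110785, the last 3 on the plus strand.
IFI6: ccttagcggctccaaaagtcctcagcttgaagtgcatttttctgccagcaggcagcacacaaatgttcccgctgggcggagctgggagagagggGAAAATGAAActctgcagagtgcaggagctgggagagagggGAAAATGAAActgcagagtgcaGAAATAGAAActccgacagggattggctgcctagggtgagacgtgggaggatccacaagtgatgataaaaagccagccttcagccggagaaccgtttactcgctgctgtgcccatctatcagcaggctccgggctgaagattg
MX1: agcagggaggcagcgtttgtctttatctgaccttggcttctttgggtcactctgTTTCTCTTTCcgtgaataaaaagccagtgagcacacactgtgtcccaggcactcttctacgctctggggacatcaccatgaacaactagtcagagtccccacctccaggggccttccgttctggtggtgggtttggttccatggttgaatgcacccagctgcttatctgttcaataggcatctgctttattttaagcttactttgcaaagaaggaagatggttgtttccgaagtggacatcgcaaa
OAS3: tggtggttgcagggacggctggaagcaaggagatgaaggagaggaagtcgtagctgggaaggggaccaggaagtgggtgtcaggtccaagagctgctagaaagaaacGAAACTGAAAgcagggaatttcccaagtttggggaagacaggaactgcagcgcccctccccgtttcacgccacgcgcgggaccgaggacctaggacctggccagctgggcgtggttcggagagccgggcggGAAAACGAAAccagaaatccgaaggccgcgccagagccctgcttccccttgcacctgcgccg
IFI27: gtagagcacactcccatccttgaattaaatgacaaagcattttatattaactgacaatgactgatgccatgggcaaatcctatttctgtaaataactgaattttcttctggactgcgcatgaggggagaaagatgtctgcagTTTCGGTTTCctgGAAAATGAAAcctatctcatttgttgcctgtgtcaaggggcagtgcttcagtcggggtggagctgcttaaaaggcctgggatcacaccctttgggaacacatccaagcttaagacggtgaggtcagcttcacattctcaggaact

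IFI6 held 3 matches, OAS3 and IFI27 had 2 each, and this MX1 window had 1. Of the 10 low interferon members, 9 had a window, and 8 of these genes held the letters, in 11 of 13 windows (84.6%). The letters stood in 2.80% of 12408 windows of genes of mean CPM of at least 8 and in 3.57% of all 35116 windows. Among all high members with a window, 9 of 219 windows held them (4.11%). For the hypoxia members the core letters ACGTG of the hypoxia response element were searched on both strands, and capitals mark them in the windows of CA9 (chr9:35673678-35673977) and ANGPTL4 (chr19:8363905-8364204), both on the plus strand.
CA9: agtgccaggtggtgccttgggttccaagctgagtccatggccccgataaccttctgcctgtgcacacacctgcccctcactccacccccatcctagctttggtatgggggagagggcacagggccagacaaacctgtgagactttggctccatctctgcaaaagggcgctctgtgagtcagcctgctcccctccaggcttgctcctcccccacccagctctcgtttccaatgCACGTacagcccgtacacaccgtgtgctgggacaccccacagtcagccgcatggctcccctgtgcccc
ANGPTL4: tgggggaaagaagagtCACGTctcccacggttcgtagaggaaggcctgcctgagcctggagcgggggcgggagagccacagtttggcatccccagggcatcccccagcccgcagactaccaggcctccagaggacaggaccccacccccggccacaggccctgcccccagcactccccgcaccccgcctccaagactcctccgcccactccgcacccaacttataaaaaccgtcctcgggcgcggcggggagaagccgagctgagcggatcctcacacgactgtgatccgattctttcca

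These letters stood in 5 of 8 windows of the hypoxia members (62.5%), those of ALDOC, ANGPTL4, BNIP3, CA9 and TXNIP, in 46 of 219 windows of all high members (21%), in 26.1% of the windows of genes of mean CPM of at least 8 and in 21.4% of all windows. The core is short and is met often by its letters alone. Of the 192 high members 144 had a window in the table, and of the 60 low members not on the mitochondrial chromosome 44 had one. In all 12 motifs were searched, and these 2 are described because they belong to the lists shown. Only windows with a match are shown. For neither list was the share taken over the genes that were no members, so it does not set the members apart from their list. A match describes letters in a window and says nothing of a factor bound there.

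The members that stood farthest apart were led by a gene nearly silent in shCdGAP cells. EPB41L3, which encodes a band 4.1 protein linking the membrane to the cytoskeleton, had 13, 125 and 10 reads in shCdGAP replicates 1, 2 and 3 and 1679, 1709 and 1351 in the shCon replicates. In CPM these were 0.322, 2.90 and 0.294 in shCdGAP and 39.6, 39.9 and 40.7 in shCon. Replicate 2 was thus 8.99-fold and 9.85-fold above the other shCdGAP libraries and remained far below all 3 shCon libraries.

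LCP1, encoding the actin-bundling protein L-plastin, was at 5.63, 49.3 and 4.50 CPM in shCdGAP and at 183, 186 and 189 CPM in shCon. IGF2, an insulin-like growth factor, was at 6.24, 43.1 and 7.20 CPM in shCdGAP and at 430, 411 and 427 CPM in shCon. The same order, replicate 2 between the other shCdGAP libraries and shCon, held for TINAGL1, TNS4, LCN2 and ITGB4, whose products are a matrix protein, a focal adhesion protein, the iron-carrier-binding lipocalin 2 and an integrin of hemidesmosomes. LCN2 was at 43.8, 114 and 40.5 CPM in shCdGAP and at 1287, 1275 and 1329 CPM in shCon, and ITGB4 was at 11.9, 27.6 and 11.8 CPM against 219 to 248 CPM.

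Other members reached the shCon level or passed it. NOG, the BMP antagonist noggin, was at 4.61, 25.7 and 4.73 CPM in shCdGAP and at 16.3, 15.7 and 15.6 CPM in shCon, so that replicate 2 was the highest of the 6 libraries. FOXA2, a forkhead transcription factor of endodermal lineages, was at 3.42, 18.1 and 3.91 CPM against 17.9, 16.3 and 17.3 CPM. HPGD, which degrades prostaglandins, was at 7.26, 22.0 and 8.12 CPM against 22.3, 22.0 and 25.7 CPM. AGR2, a secretory-pathway disulfide isomerase, and MCC, a negative regulator of the cell cycle, were highest in replicate 2 and lowest in the other shCdGAP libraries.

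A smaller number of the leading members moved away from shCon. PDPN, the mucin-type membrane protein podoplanin, was at 6.15, 35.7 and 6.12 CPM in shCdGAP and at 1.58 to 1.85 CPM in shCon. HEPHL1, a copper-dependent ferroxidase, was at 51.8, 151 and 42.5 CPM against 1.58, 1.89 and 2.17 CPM. STC1, the secreted glycoprotein stanniocalcin 1, was at 42.7, 122 and 33.9 CPM against 11.3 to 12.3 CPM. In these 3 genes the groups did not overlap and replicate 2 was the farthest from shCon. Groups without overlap were seen in 67.0% of all tested genes and 73.4% of non-member genes of mean CPM of at least 8.

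**Figure D2:**
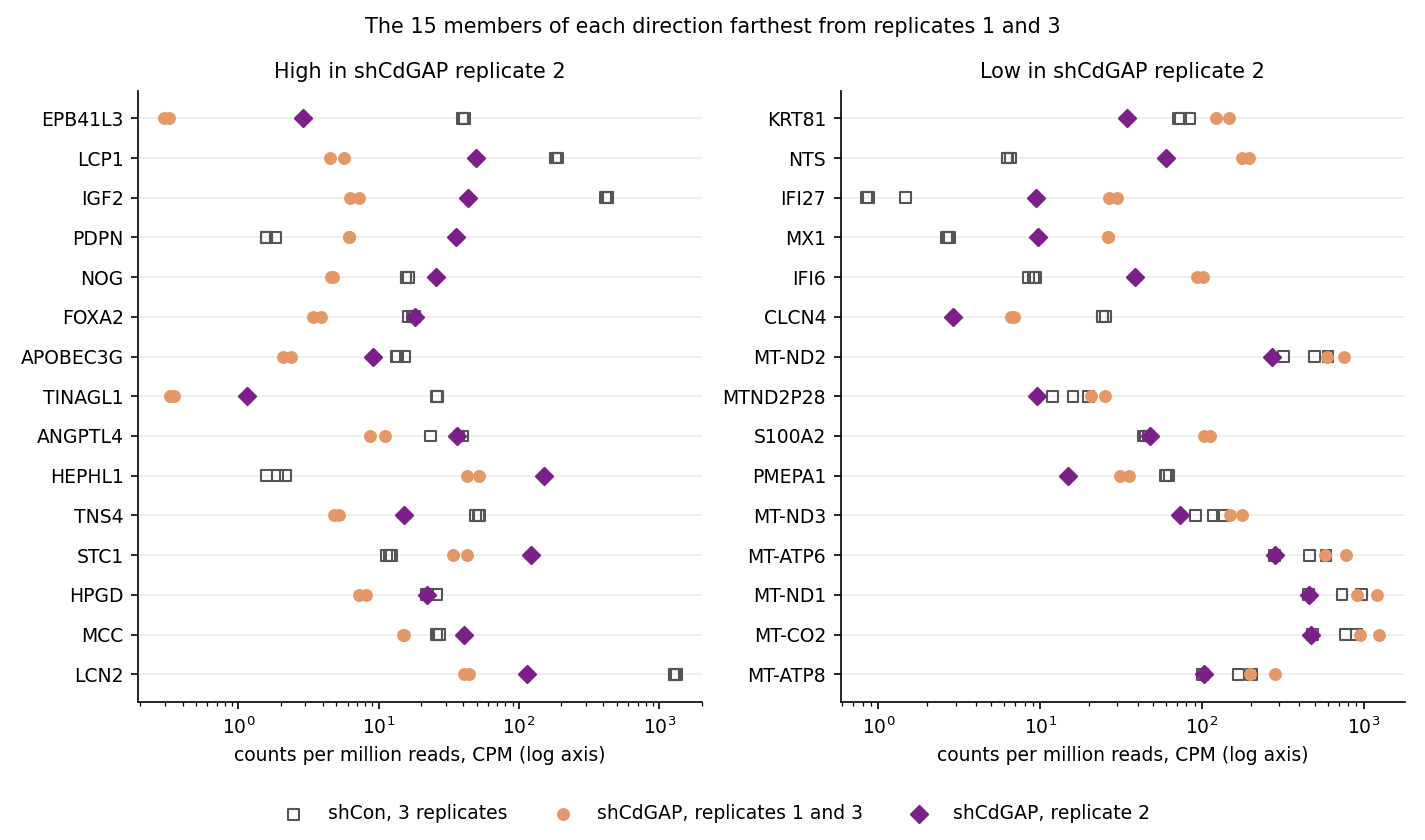
CPM (log axis) in each library for the 15 high members (left) and the 15 low members (right) with the largest smaller ratio of replicate 2 to replicates 1 and 3. Purple diamonds are shCdGAP replicate 2, orange points replicates 1 and 3, and open squares the 3 shCon libraries. EPB41L3 was at 2.90 CPM in replicate 2 with shCon at 39.6 to 40.7, and MX1 at 9.73 CPM with shCon at 2.62 to 2.76.

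The direction of replicate 2 was set against the position of shCon. A member was called toward when the mean shCon level lay on the side to which replicate 2 had moved and over 0.5 from the mean of replicates 1 and 3, on the scale log2(CPM + 0.1). It was called away when shCon lay over 0.5 on the other side, and near otherwise. Of the 192 high members, 73 were toward (38.0%), 63 near and 56 away (29.2%). Of the 73 low members, 44 were toward (60.3%), 21 near and 8 away. Among the 10006 other genes 11.6% were toward, 79.8% near and 8.68% away. Both positions are measured from replicates 1 and 3, so they share those libraries and no test was made.

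The step of replicate 2 toward shCon differed widely in size. As a share of the linear distance from the mean of replicates 1 and 3 to shCon, it ran from 3.20% to 262% over the 73 high members called toward, with a median of 49.0% and quartiles of 25.7% and 91.8%. TINAGL1 covered 3.20%, LCN2 5.70%, EPB41L3 6.51%, ITGB4 7.12%, IGF2 8.73%, LCP1 24.4%, APOBEC3G 57.6% and FOXA2 107%. In 16 of the 73 replicate 2 went beyond the shCon mean. For the 34 nuclear low members called toward the range was 34.4% to 173%, with a median of 68.8%, and 6 went beyond shCon. No single share of the distance thus described the members. Replicate 2 was the highest of all 6 libraries in 128 of the 192 high members and the lowest of all 6 in 35 of the 73 low members.

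**Figure D3:**
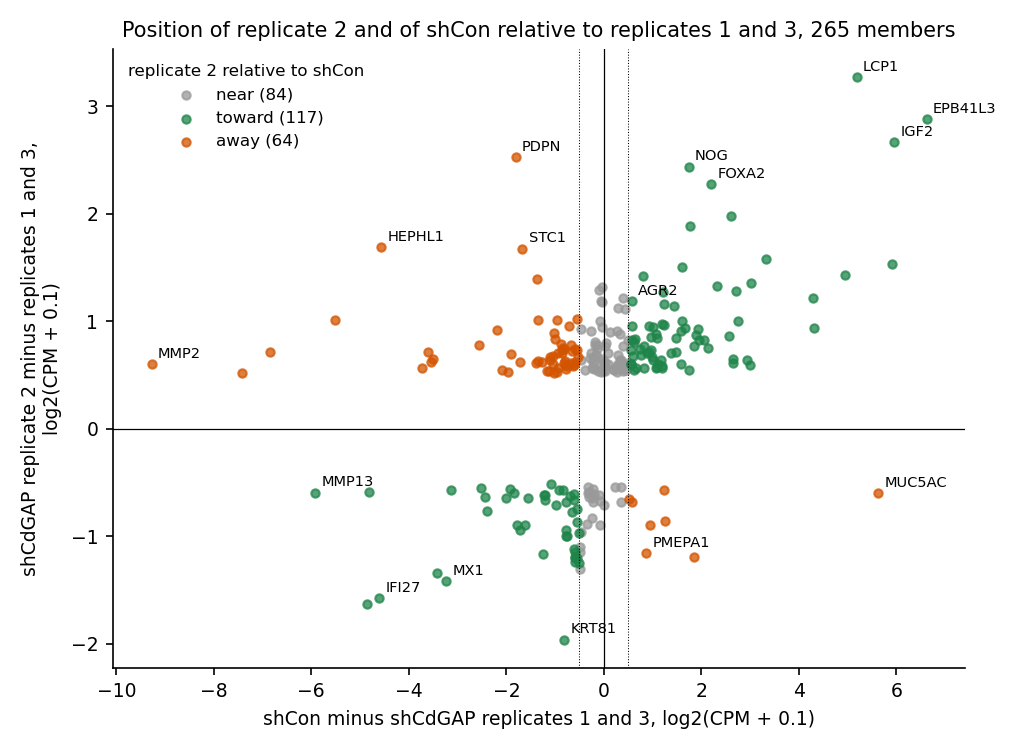
Each point is one of the 265 members. The horizontal axis is the mean shCon level minus the mean of shCdGAP replicates 1 and 3, and the vertical axis is replicate 2 minus the same mean, both as log2(CPM + 0.1). Green points are toward shCon, orange away and grey within 0.5 (dotted lines). Members spread into all 4 quadrants, with LCP1 and EPB41L3 at the upper right and MMP2 and HEPHL1 at the upper left.

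The nuclear list with the most low members was that of interferon-stimulated genes. The list of the interferon response had 36 genes of mean CPM of at least 8, of which 10 were low members, 1 was a high member, and 30 lay below and 6 above the mean of replicates 1 and 3. Their median deviation of replicate 2 was -0.29 on the log2 scale, against -0.01 over all 10271 genes. In shCon 25 of the same genes lay below and 11 above the mean of shCon replicates 1 and 3, with a median of -0.03.

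IFI27, an interferon-inducible membrane protein, was at 26.6, 9.43 and 30.0 CPM in shCdGAP and at 0.873, 0.841 and 1.48 CPM in shCon. MX1, a dynamin-like antiviral GTPase, was at 26.1, 9.73 and 26.3 CPM against 2.69, 2.76 and 2.62 CPM, and IFI6 was at 93.4, 38.3 and 101 CPM against 8.42, 9.09 and 9.34 CPM. In these 3 genes replicate 2 lay between the other shCdGAP libraries and shCon, at 66.7% to 70.0% of the distance. IFI44L, at 24.7, 13.1 and 25.7 CPM in shCdGAP and 15.3, 13.3 and 15.5 CPM in shCon, was the interferon member that reached the shCon level.

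The other low members of the list were HERC6, IFITM1, IFI44, DDX60, OAS2 and OAS3, which encode a protein of the HERC ligase family, a membrane protein that blocks viral entry, an antiviral cytoplasmic protein, a helicase and 2 synthases of oligoadenylates. All 10 were toward shCon. In the comparison of shCdGAP with shCon over all 6 libraries by edgeR's quasi-likelihood test, a gene was called when its adjusted p was under 0.01 and its levels differed over 2-fold. Of the 47 tested genes of the list 24 were called higher, beside 8.56% of all tested genes, and 0 were called lower, beside 4.19%. The adjusted p alone is reached by 46.2% of all tested genes. The standard error (SE) is here the size of the log2 difference divided by the square root of the test's F statistic, an approximation. IFITM1 was higher by 2.18 on the log2 scale (SE 0.222, edgeR adjusted p = 0.000101), OAS2 by 2.24 (0.188, 5.57e-05) and IFI44 by 1.82 (0.177, 6.13e-05). These 3 calls and that of DDX60 (1.35) held without each library in turn. MX1 (2.91, edgeR adjusted p = 0.00247) lost its call without shCon replicate 1, 2 or 3 (0.0137, 0.0124 and 0.0108). IFI27 (4.37, edgeR adjusted p = 0.00219) did not pass without shCon replicate 1 (0.0117), and IFI6 (3.09, 0.00278) passed neither without that library (0.0113) nor with the replicate number as a block (0.0101). HERC6 (1.36, edgeR adjusted p = 0.0038) lost its call without shCon replicate 1, 2 or 3. OAS3 (0.646, edgeR adjusted p = 0.0131) and IFI44L (0.497, 0.147) were not called. Each of the 10 low members was higher in all 3 shCdGAP libraries than in any shCon library except IFI44L, in which replicate 2 lay below all 3. Among all tested genes 67.0% had the 3 shCdGAP libraries all on one side of shCon. Among non-member genes of mean CPM of at least 8 the share was 73.4%.

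ISG20, an interferon-induced exonuclease, was the exception in direction, at 13.5, 22.0 and 13.1 CPM in shCdGAP and 8.49, 8.23 and 8.68 CPM in shCon. Of 13 genes of antigen presentation none was a member, and 10 lay above and 3 below the mean of replicates 1 and 3.

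Genes of hypoxia and glycolysis deviated upward as a group. All 40 genes of this list with a mean CPM of at least 8 lay above the mean of replicates 1 and 3, with a smallest deviation of 0.005 and a median of 0.31, and 9 passed the threshold. Among all 10271 genes 47.0% lay above that mean. In shCon 33 of the same 40 genes lay above the mean of shCon replicates 1 and 3, with a median of 0.03.

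ANGPTL4, a secreted inhibitor of lipoprotein lipase, was at 11.1, 36.3 and 8.61 CPM in shCdGAP and at 23.3, 39.9 and 37.4 CPM in shCon. It was 1 of the few members that varied in shCon, where replicate 1 was low. NDRG1, a hypoxia- and differentiation-induced cytoplasmic protein, was at 850, 2039 and 706 CPM in shCdGAP and at 257, 312 and 328 CPM in shCon. CA9, the carbonic anhydrase that serves pH control, was at 32.8, 52.8 and 28.3 CPM against 15.6, 16.6 and 17.6 CPM. ADM, PFKFB4, BNIP3, TXNIP and ALDOC encode the vasodilator adrenomedullin, a regulator of glycolytic flux, a mitophagy receptor, a thioredoxin inhibitor and an aldolase. Replicate 2 exceeded replicates 1 and 3 by 1.43-fold to 1.85-fold in these 5 genes. Relative to shCon the 9 members were split, with 2 toward (ANGPTL4 and ADM), 3 near and 4 away. ALDOC was higher in shCdGAP by 1.15 on the log2 scale (SE 0.148, edgeR adjusted p = 0.000324), and without replicate 2 its fold was below the limit (0.95).

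The list of epithelial junctions and keratins had 38 genes, of which 8 were high and 2 low members, 31 lay above and 7 below the mean of replicates 1 and 3, and the median deviation was 0.23. In shCon 22 lay above and 16 below, with a median of 0.01. CDH1, encoding E-cadherin of the adherens junction, was at 29.7, 51.0 and 25.6 CPM in shCdGAP and at 56.0, 57.6 and 59.5 CPM in shCon, so replicate 2 came close to shCon without overlapping it. Of the claudins, which seal tight junctions, CLDN4 was at 154, 236 and 149 CPM against 192, 194 and 193 CPM, CLDN7 was 1.83-fold and 1.86-fold above replicates 1 and 3, and CLDN3 1.51-fold and 1.49-fold. For these 3 claudins replicate 2 was the highest of the 6 libraries. CLDN1, a claudin of the list that was no member, went the other way. It was at 35.2, 23.6 and 32.1 CPM in shCdGAP and at 68.2 to 71.2 CPM in shCon, and was chosen after its values were seen. ST14, the membrane protease matriptase, was at 23.0, 35.4 and 22.9 CPM against 1.77, 2.06 and 1.81 CPM, a log2 difference of 3.82 (SE 0.217, edgeR adjusted p = 4.63e-06).

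The keratins went both ways. KRT19, a keratin of simple epithelia, was high at 299, 455 and 297 CPM, whereas KRT81, a hair keratin, was at 122, 34.2 and 146 CPM in shCdGAP and 71.3, 83.8 and 73.4 CPM in shCon. KRT81 stood farthest apart of the low members, at 0.280 of replicate 1 and 0.234 of replicate 3, and was lowest of the 6 libraries in replicate 2. Its neighbours on chromosome 12, KRT7 and KRT75, were low as well. KRT75, chosen after its values were seen, was at 462, 318 and 482 CPM with shCon at up to 57.4 CPM.

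Of 28 genes of inflammatory and acute-phase secretion 3 were high and 4 low members, and 14 lay on each side of the mean of replicates 1 and 3. CXCL1, CXCL2 and CXCL3, neutrophil-attracting chemokines encoded beside each other on chromosome 4, were low in replicate 2, and CXCL5 between them was high. CXCL2 was at 81.1, 42.2 and 81.0 CPM in shCdGAP and 23.6 to 25.1 CPM in shCon, and CXCL5 was at 6.07 CPM in replicate 1 and 13.2 CPM in replicate 2, against 44.3, 44.8 and 43.6 CPM. CXCL1, CXCL2 and CXCL3 are near-identical in parts, so reads may be lost or shared between them. CCL2, which attracts monocytes, was at 558, 380 and 582 CPM against 19.3 to 20.9 CPM, a log2 difference of 4.62 (SE 0.194, edgeR adjusted p = 6.83e-06). NTS, encoding the peptide neurotensin, was at 178, 60.3 and 196 CPM against 6.30, 6.52 and 6.24 CPM, a log2 difference of 4.48 (SE 0.575, edgeR adjusted p = 0.00179). IL1B, the cytokine interleukin 1 beta, was at 104, 232 and 99.5 CPM in shCdGAP and between 96.3 and 98.5 CPM in shCon. In it only replicate 2 left a level common to the other 5 libraries.

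The mesenchymal and matrix list had 42 genes, 4 high and 4 low members, and a median deviation of 0.00, with 21 genes on each side. MMP2, a gelatinase, was at 62.5, 93.8 and 61.1 CPM in shCdGAP and had no read in any shCon library. Set against 3 reads per shCon library, its mean of 72.5 ± 18.5 CPM (SD, n = 3) was at least 940-fold higher. MMP13, a collagenase, was low in replicate 2, at 162, 108 and 165 CPM, with shCon at 2.29 to 3.06 CPM. ITGA5, the fibronectin receptor subunit, was at 75.1, 109 and 73.9 CPM against 16.8 to 18.2 CPM, and LOX, which crosslinks collagen, was at 8.40, 17.3 and 7.23 CPM against 19.6 to 22.7 CPM.

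Members of the TGF-beta pathway were found in both directions. Of 27 genes with a mean CPM of at least 8, the high members were the ligands TGFB2 and INHBA, the antagonist NOG and the cell cycle inhibitor CDKN2B, and the low members were PMEPA1, SKIL and ID3. PMEPA1, which restrains receptor signalling, was at 31.3, 14.8 and 35.1 CPM in shCdGAP and 60.1, 62.5 and 59.4 CPM in shCon, so replicate 2 moved away from shCon. TGFB2 was at 35.1, 63.8 and 34.8 CPM against 214, 207 and 206 CPM, a log2 difference of -2.25 (SE 0.266, edgeR adjusted p = 0.00115).

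Of the 29 immediate early and ERK feedback genes 4 were high members and none was a low member. DUSP6, a phosphatase of ERK, was at 222, 394 and 203 CPM in shCdGAP and at 103 to 105 CPM in shCon. DUSP5, SPRY1 and the EGF receptor ligand TGFA were 1.43-fold to 1.66-fold above the other shCdGAP libraries. Of the whole list 23 genes lay above and 6 below the mean of replicates 1 and 3, with a median deviation of 0.23. Among 8 genes of mucins and the secretory lineage FOXA2, AGR2 and SPDEF were high, and the gel-forming mucin MUC5AC was low with 10, 5 and 7 reads in shCdGAP against 661, 698 and 542 in shCon. At that depth the difference among the shCdGAP libraries of MUC5AC rests on 22 reads.

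Of 51 S phase genes 49 lay below the mean of replicates 1 and 3, with a median deviation of -0.26, although only CLSPN and HELLS passed the threshold. CLSPN, a checkpoint adaptor at replication forks, was at 41.9, 22.5 and 41.5 CPM in shCdGAP and 34.6, 33.8 and 30.5 CPM in shCon, and HELLS, a chromatin remodeller, was at 41.4, 28.5 and 41.7 CPM against 46.6 to 50.1 CPM. Of the 52 G2/M genes 27 lay above and 25 below, with a median of 0.01. In shCon 36 of the 51 S phase genes and 35 of the 52 G2/M genes lay above.

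**Figure D4:**
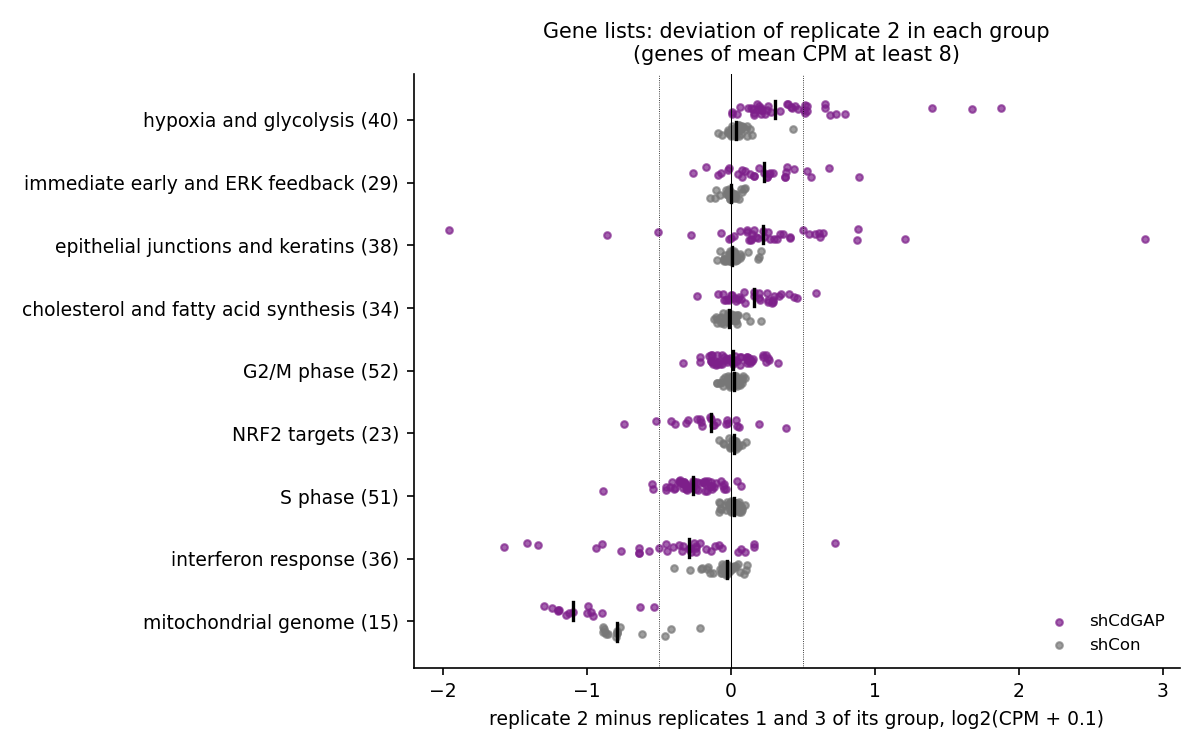
Deviation of replicate 2 from the mean of replicates 1 and 3 of its group, as a difference of log2(CPM + 0.1) (horizontal axis), for the genes of 9 lists with the number of genes in brackets. Purple points are shCdGAP, grey points shCon, black bars medians and dotted lines 0.5. The shCdGAP medians run from -1.10 for the mitochondrial genome and -0.29 for the interferon response to 0.31 for hypoxia and glycolysis, and only the mitochondrial list has a shCon median far from 0, at -0.79.

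The remaining lists had few members. Of the 36 genes of ATF4 and the unfolded protein response 1 was a member, DDIT4, an inhibitor of mTORC1 at 99.9, 190 and 97.0 CPM against 176 to 196 CPM in shCon. The 34 genes of cholesterol and fatty acid synthesis gave TM7SF2 as a high member, with 27 genes above and 7 below. The 23 NRF2 targets gave GCLM, a subunit for glutathione synthesis, as a low member, with 18 below and 5 above. YAP and SRF targets (25 genes), replication-dependent histones (4 genes) and metallothioneins and heat shock genes (14 genes) held no member. The histone list could be checked only in part, since 12 of its 29 symbols were matched.

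Among the mitochondrial members shCon replicate 2 deviated in the same way beyond the threshold for most genes. Of 15 genes of the mitochondrial genome with a mean CPM of at least 8, 13 were low members, and 2 nuclear copies on chromosome 1, MTND2P28 and MTATP6P1, were low too. The copies are near-identical to mitochondrial genes, so their reads cannot be assigned with certainty. MT-ND2, a subunit of respiratory complex I, was at 593, 271 and 751 CPM in shCdGAP and at 498, 320 and 600 CPM in shCon. MT-CO1, a subunit of cytochrome c oxidase, was at 2503, 1463 and 3289 CPM in shCdGAP and 2062, 1344 and 2624 CPM in shCon. In both genes replicate 2 was the lowest and replicate 3 the highest library of each group, and the groups overlapped.

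All genes of the mitochondrial chromosome took 1.12%, 0.616% and 1.46% of the reads in shCdGAP replicates 1, 2 and 3 and 0.920%, 0.594% and 1.14% in shCon. The order of the replicate numbers was thus the same in both groups. Over the 15 mitochondrial members and copies the median deviation of replicate 2 was -1.15 in shCdGAP and -0.80 in shCon, where all 15 lay below both other libraries. By edgeR none of the 15 was called between the groups. With mitochondrial genes and copies left out of the library totals, 190 genes were high and 79 low.

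Outside the mitochondrial members the deviations in shCon were small. Over the 58 low members outside this group the median shCon deviation was 0.04, with a range of -0.40 to 0.36, and over the 192 high members it was -0.02, with a range of -0.29 to 0.76. Both shCon ratios were beyond 0.5 in the member's direction for 13 members. Of these 12 were mitochondrial genes or a copy. The other was TREM1, a receptor of myeloid cells with hardly any read in shCon (at most 0.0935 CPM). Among the 10006 other genes of mean CPM of at least 8, 1 passed upward and 1 downward (0.00999% each). In sign only, shCon replicate 2 was above both other shCon libraries for 50 of the 192 high members (26.0%), against 33.7% of the other genes. It was below both for 15 of the 58 nuclear low members (25.9%), against 33.6%. The shCon deviation was within 0.25 for 186 of the 192 high members and 56 of the 58 nuclear low members.

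**Figure D5:**
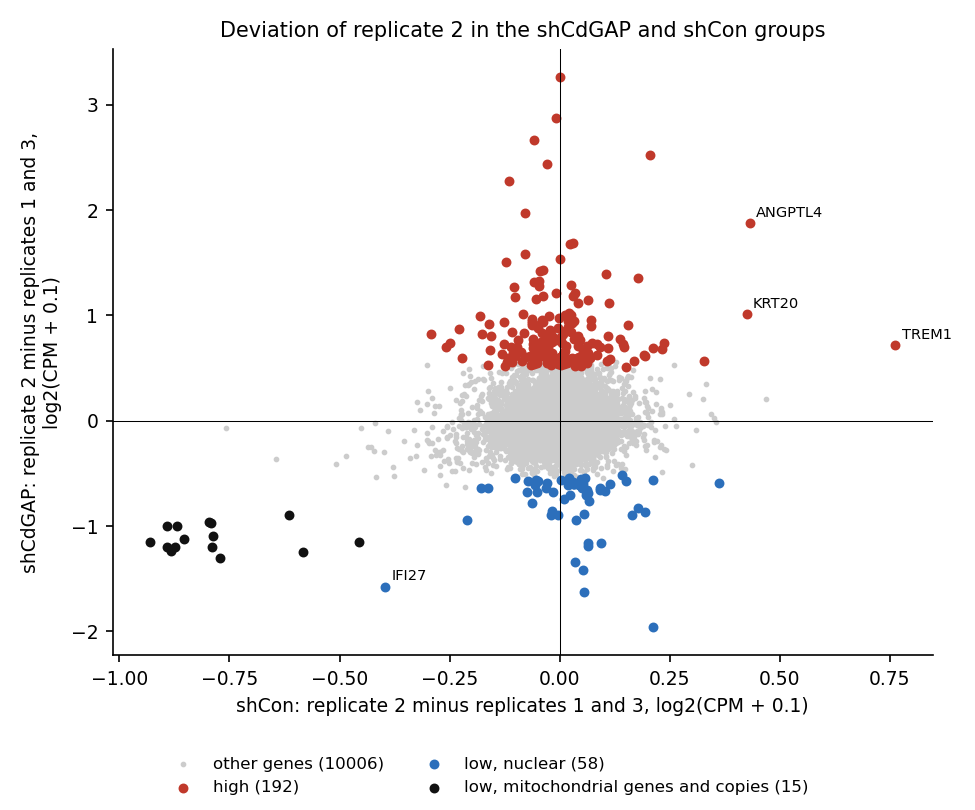
Deviation of replicate 2 from the mean of replicates 1 and 3, as a difference of log2(CPM + 0.1), in shCon (horizontal axis) and shCdGAP (vertical axis) for 10271 genes. Grey points are other genes, red high members, blue nuclear low members and black mitochondrial genes and copies. Black points lie at the left with shCon deviations down to -0.93, while red and blue points lie around 0, with TREM1 farthest to the right at 0.76.

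The comparison of shCdGAP with shCon was fitted over all 16439 tested genes by the same test and with the same limits. It called 2096 genes, 12.8% of those tested, and 6.48% of the genes of mean CPM of at least 8. Of the 192 high members it called 37 higher and 28 lower (33.9%, beside 8.56% higher and 4.19% lower of all tested genes), and of the 73 low members 19 higher and 5 lower (32.9%). A member has a wide spread in shCdGAP by its choice, so these shares are descriptions. The libraries of the groups did not overlap in 129 of the 192 high members (67.2%) and 38 of the 73 low members (52.1%). They did not overlap in 67.0% of all tested genes and 73.4% of the 10006 other genes of mean CPM of at least 8.

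Each called high member that was higher in shCdGAP was away from shCon, and each that was lower was toward it. The definitions largely fix this, since both compare shCdGAP libraries with shCon, so it is no separate result. Without shCdGAP replicate 2 the calls over high members changed to 28 higher and 52 lower, and 27 calls over them were made that the full comparison did not make. Over all members the lower calls rose from 33 to 56 and the higher calls fell from 56 to 50. The members were chosen for the distance of this library from the other 2, so leaving it out narrows their spread by that choice, and the added calls are no separate result. The log2 difference of LCP1 was -3.23 (SE 0.990, edgeR adjusted p = 0.0448) with all libraries and -5.22 without replicate 2, and that of IGF2 was -4.49 (edgeR adjusted p = 0.0106) and -6.01. The other library that moved a count by over 1.5 times was shCon replicate 1, without which 37 members were called higher in place of 56.

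TINAGL1 fell by 5.38 (SE 0.297, edgeR adjusted p = 6.13e-06) and LCN2 by 4.32 (SE 0.496, edgeR adjusted p = 0.00117) on the log2 scale, and both calls held without each library. EPB41L3 fell by 5.03 (SE 0.615, edgeR adjusted p = 0.00148), and with the replicate number as a block its adjusted p was 0.0136 by edgeR. MUC5AC fell by 6.42 (edgeR adjusted p = 1.67e-08), but its shCdGAP level rests on few reads, so the size of the fall is uncertain. HEPHL1 was higher by 5.43 (SE 0.770, edgeR adjusted p = 0.00260) and did not pass without shCon replicate 1 (adjusted p = 0.0106).

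Several members lie beside each other. Within 200000 bases of each other were, among others, the high pairs CLDN3 and CLDN4, CDKN2A and CDKN2B, and MMP2 and LPCAT2. SCNN1G and SCNN1B (subunits of the epithelial sodium channel) were another pair, and APOBEC3B, APOBEC3C and APOBEC3G, cytidine deaminases on chromosome 22, were a run. Further high pairs were SLC43A3 and RTN4RL2, ABHD17C and CEMIP, LINC00342 and ANKRD36C, and CA9 and MSMP. Low pairs included IFI44L and IFI44, OAS3 and OAS2, and SERPINB3 and SERPINB7. The share of such neighbours among all genes was not taken. The APOBEC3 genes are similar in sequence, so their levels are uncertain. APOBEC3C was at 59.0, 144 and 60.1 CPM in shCdGAP and 131 to 144 CPM in shCon. Genes named in this paragraph beyond those of the lists were chosen after their values were seen. By chromosome, members made up 1.24% of the genes of mean CPM of at least 8 on chromosome 19, 5.08% on chromosome 4 and 86.7% on the mitochondrial chromosome, against 2.58% in all.

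Markers of other cell types were summed as a check on the composition of the cultures. The 16 markers of leukocytes, fibroblasts, endothelium and luminal prostate summed to 73.6, 77.5 and 72.5 CPM in shCdGAP and to 24.9 to 26.5 CPM in shCon, with 5 to 8 of the 16 at 0. CD3E, KLK3 and KLK2 were at 0 in every library. COL1A1 was at 56.5, 59.8 and 56.5 CPM in shCdGAP and at 17.2, 17.4 and 18.9 CPM in shCon. PECAM1, under the mean CPM of 8, was at 2.38, 6.05 and 2.73 CPM in shCdGAP and at 5.38 to 5.57 CPM in shCon. COL3A1, also under that mean, went the other way in replicate 2, at 10.6, 6.53 and 10.3 CPM in shCdGAP. It was at 1.25, 1.005 and 1.08 CPM in shCon. PECAM1 and COL3A1 were chosen after their values were seen. In bulk RNA fewer cells of a type and less RNA per cell cannot be told apart, and the part of a mixture of cells in these differences was not tested.

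The threshold cut through a continuous range of values. Just inside it were MYH15, with a smaller log2 ratio of 0.51, and COL6A3, with -0.50. Just outside were TWF2, at 0.50, and CCNE2, at -0.50, which differ from them by less than 0.01. The median smaller ratio was 0.66 over the high members and -0.69 over the low members, and 31 high and 12 low members had both ratios beyond 1. Counting noise was small for most members, since 6 high members and 1 low member had under 100 reads in a shCdGAP library. The reads of replicate 2 come from 1 library, so its deviation has no replicate of its own.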

How the data were processed

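The values the authors deposited are raw, unnormalized counts for each gene, 1 table for each of 6 PC-3 RNA libraries (3 shCdGAP, 3 shCon), with 64253 Ensembl genes each, of which 56105 matched a symbol. The submitters' processing notes name FastQC 0.11.5, STAR 2.5.1b, GRCh38, featureCounts 1.4.6 and DESeq2 1.12.3. The deposited headers give featureCounts 1.6.0, the annotation of Ensembl release 77 and a strand-specific, paired setting, whereas the methods name a single-read kit. Reads with several alignments were not counted, so near-identical copies are measured incompletely.

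CPM used library totals over all genes (Python 3.11.15, pandas 2.3.3). Deviations used a pseudocount of 0.1 CPM. Groups were compared by the robust quasi-likelihood test of edgeR 4.0.16 under R 4.3.3 (TMM scaling after filterByExpr, Benjamini-Hochberg adjustment over 16439 genes), with DESeq2 1.42.0 as an alternative. Genes named are the 15 members of each direction with the largest deviation, the 8 with the highest mean CPM, members of 21 lists, those at the threshold and ARHGAP31, but not all named by this rule are described. Members and lists were chosen with earlier results of these data known. Same-numbered libraries deviated together across genes (correlations 0.122, 0.125 and 0.117), which comes from the data and not from the labels. Pairs of different numbers ran from -0.205 to 0.104. Without mitochondrial genes the same-numbered pairs gave 0.114, 0.055 and 0.048, and the other pairs ran from -0.135 to 0.082. An exact permutation of 3 against 3 cannot give a two-sided p under 0.1. P-values measure the spread between these samples, which may be technical. The scripts were tested on simulated counts. Alternatives were other scalings, thresholds, filters and tools, omission of each library, and a block for the replicate number. Some genes of the lists are not reported here.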

Additional observations from a re-analysis of the deposited data

How the results depend on the processing

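With a log2 ratio threshold of 1 the members were 31 high and 12 low. With a mean CPM minimum of 1 they were 501 and 199, and with a minimum of 20 they were 113 and 49. TMM-adjusted library sizes gave 189 and 76. Counted by sign only, 55.7% of the high and 83.6% of the low members were toward shCon, and with a threshold of 1 the high share was 64.5%. Without a filter on low counts 34 members were called higher and 19 lower, in place of 56 and 33 by edgeR. With each library left out in turn the higher calls ran from 37 to 59 and the lower calls from 26 to 56. DESeq2 called 61 higher and 39 lower. The count of members whose shCon replicate 2 deviated in the same way was 80 by sign only, 2 with a threshold of 1, and 1 with mitochondrial genes and their nuclear copies left out, an alternative chosen after seeing the data. With the replicate block 53 members were called higher and 29 lower, and of the 105 named genes 6 lost their call (EPB41L3, TNS4, MSMP, FCGBP, IFI6 and CXCL2) and none gained one. Of 84 named genes beyond 1 standard error of 0, 43 kept direction and call under each of the 10 alternatives tried. CLDN3 and TGFA changed sign without shCdGAP replicate 2, with log2 fold changes from -0.03413 to 0.30 for CLDN3 and from -0.01738 to 0.28 for TGFA over the libraries left out. The cause of these changes was not tested, apart from the smaller sets of genes that stricter thresholds leave by construction. Replicate 2 of each group is 1 library, so no depth of sequencing gives its deviation an error.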

Other observations

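Each of the libraries beside shCdGAP replicate 2 had few genes apart from its group. MIR23AHG, which is no member, and MT-ATP8 and MTATP6P1, low members, were high in shCdGAP replicate 3. ANGPTL4, KRT20 and TREM1, all high members, were low in shCon replicate 1. TREM1 had hardly any read in shCon, so its ratios there rest on very few reads. These genes were chosen after their values were seen.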
